A study of Mus musculus with 62 samples.

Results

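Cadherins and protocadherins are cell surface proteins that bind one another through repeated extracellular domains. Classical cadherins hold cells of like type together through calcium-dependent binding and are anchored to the cytoskeleton by catenins. The clustered protocadherins are made from 3 adjoining gene arrays, named alpha, beta and gamma, and individual neurons use different sets of them, which is known for its part in the self-recognition of dendrites and in the survival of interneurons. The non-clustered delta protocadherins are single genes with regional patterns of expression in the brain, and the large Fat, Dchs and Celsr cadherins are known for the polarity and guidance of cells. Members were taken by name: every protein-coding gene whose symbol begins with Cdh and a digit or with Pcdh, together with Celsr1 to Celsr3, Fat1 to Fat4 and the Dchs genes. The annotation held 101 such genes, and 82 of them were among the 12483 genes with a row in at least 1 of the 2 count tables.

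RNA was sequenced from 62 punches of frozen brain from 26 C57BL/6J mice, with 26 libraries from the nucleus accumbens (NAc), 17 from the prefrontal cortex (PFC) and 19 from the suprachiasmatic nucleus (SCN). The mice had been through circadian rhythm disruption (CRD), repeated large shifts of the light cycle, or were matching controls kept without it. All were killed at zeitgeber time 6, about 4 weeks after the schedule ended. For each library the labels name only the region and the mouse. Whether it is from a CRD or a control mouse, its sex and the age at CRD were therefore not used, and the comparisons are of regions. By the study's methods, tissue came from mice with adolescent CRD and matching controls. The sample record names adult CRD too, but no library is marked with an age at CRD. The mouse numbers fall into a lower range (12 NAc, 7 PFC and 7 SCN libraries) and a higher range (14, 10 and 12). Each library is 1 animal, and the 2 regions of 17 mice could be set side by side for NAc and PFC, of 19 mice for SCN and NAc, and of 12 mice for SCN and PFC.

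Total counts per library ran from 28879724 to 60009482 in NAc, from 31216225 to 50333579 in PFC and from 16496666 to 35389742 in SCN, and mitochondrial and ribosomal RNA genes took between 31.5% and 75.2% of them. The members together took a median of 0.534% of the counts on nuclear protein-coding genes in NAc, 0.518% in PFC and 0.409% in SCN. The markers of NAc and PFC matched the labels: 5 of 5 striatal projection neuron genes were higher in NAc than PFC, and 5 of 5 cortical projection neuron genes were lower. All 6 SCN neuron genes had a row in the SCN table, and 1 of them, Vip, had one in the other table too. Their sum ran from 43 to 318 CPM (counts per 1000000) among SCN libraries, with a median of 203. The part of this spread in the SCN contrasts was not tested. Some libraries stood apart. The cortical gene Slc17a7 ranged from 4.77 to 359 counts per 1000000 (CPM, scaled to library size) among NAc libraries, against at least 578 in every PFC library, and the striatal gene Ppp1r1b was at 118 CPM in SCN library J1199 and 60.4 CPM in SCN library J1140 where no other SCN library exceeded 8.78 CPM. NAc library J1019 was the lowest of its region in 24 of the 78 members (30.8%, against 16.6% of all rows), and PFC library J1160 in 30 (38.5%, against 18% of all rows), and their mitochondrial and ribosomal shares were 73% and 67.2%. NAc library J1018 was the highest of its region in 15 of the 78 (19.2%, against 7.67% of all rows), at a share of 71.2%. The highest such share, 75.2%, was that of NAc J965. No alternative left out J1018 or J965 by name. In SCN, J1159 was the highest library for 17 of 73 members (23.3%, against 13.6% of all rows) and J1177 the lowest for 16 (21.9%, against 6.89%), and J1157 and J1159 had mitochondrial and ribosomal shares of 31.5% and 36.6% where all others were at 51.3% or above. Calls of named members that changed when such libraries were left out are given beside the gene or with the processing alternatives. In bulk tissue, fewer cells of a type and less RNA per cell cannot be told apart.

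Which members were kept differed between the tables. The NAc and PFC table held 78 members and the SCN table held 73, with 69 in both. By its methods the study kept, region by region, genes that exceeded 1 CPM in 50% or more of the animals of a group. However, NAc and PFC share 1 list of 11569 rows, and the SCN table has 12047, more than the methods report for SCN. The rule behind the deposited rows is thus not fully known, and a gene with no row has no known level here. All 21 annotated gamma protocadherins were in both tables, 18 of 22 beta genes were in the table of NAc and PFC but 10 in the SCN table, and of 14 alpha genes 5 and 6 were kept. All 9 genes of the delta-1 and delta-2 protocadherins were in both tables, as were Celsr1, Celsr2 and Celsr3, and 5 of the 6 Fat and Dchs genes. The 9 members with a row in the table of NAc and PFC alone were Pcdha5, Pcdhb2, Pcdhb3, Pcdhb5, Pcdhb6, Pcdhb10, Pcdhb11, Pcdhb13 and Pcdhb21, all of them clustered and 8 of them beta genes. That is 11.5% of the members of the table, beside 3.77% of all its rows. The 4 members in the SCN table alone were Cdh23, Cdh24, Pcdha6 and Pcdhac1, or 5.5% of its members beside 7.59% of all its rows. Cdh23, a cadherin of the tip links of hair cells, had 2.43 to 8.93 CPM in SCN with a median of 4.54. Pcdhac1, the first of the C-type genes at the end of the alpha array, had a median of 2.1 CPM, Pcdha6 one of 2 CPM and Cdh24 one of 3.27 CPM. In neither table were Cdh1, Cdh3, Cdh15, Cdh16, Cdh17, Cdh26, Fat2, Pcdh12, Pcdha1 to Pcdha4, Pcdha7, Pcdha8, a further gene ID of Pcdha11, Pcdhb1, Pcdhb4, Pcdhb8 and Pcdhb15.

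Levels can be compared between genes only per length, and the scale used was CPM per kilobase of exon that no other gene on the same strand covers. For Pcdhgc3 that length is 3380 bases, but 1821 when strand is not counted. Its place in the orders below therefore depends on the strand setting of the counting, which is not given. In the NAc the highest medians were those of Fat3 at 18.9, Pcdh10 at 18.2, Pcdhgc3 at 13.7, Pcdh9 at 12.6 and Pcdhgc5 at 11.2 CPM per kb. The PFC had the same leading pair, with Fat3 and Pcdh10 both at 19.1 CPM per kb, ahead of Pcdh7 at 12 and Pcdhgc5 at 11.4. In the SCN the order was another: Pcdhgc3 led at 15.1, followed by Pcdh9 at 10.6, the classical cadherin Cdh2 at 9.32 and Pcdh10 at 9.13, while Fat3 was at 6.31 and Pcdhgc5 at 1.5 CPM per kb. Fat3, which shapes the dendrites of retinal and other neurons, had 289 to 845 CPM in NAc, 346 to 558 CPM in PFC and 73.2 to 199 CPM in SCN. The SCN range lay wholly under both others. At the low end were Celsr1 in NAc and the SCN and Dchs2 in PFC.

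The stretches before a RefSeq start of 5 members are shown here. Dchs2 had the widest NAc to PFC difference of the family. Cdh6, Cdh9, Cdh10 and Cdh12 are type II cadherins in a row on chromosome 15 and did not differ between regions in 1 direction. The bases are those before the RefSeq start (build GRCm38.p6), read 5′ to 3′ on the gene's strand and cut where an exon of the same gene begins. The Cdh10 and Cdh12 stretches lie inside the annotated spans of these genes, 18818947 to 19014236 and 20449265 to 21589533. The starts used for these 2 are therefore internal ones. The Cdh9 stretch was cut to 91 bases where the annotated gene begins, at 16728756, so its RefSeq start also lies inside the annotated span. Whether any of the stretches acts as a promoter was not tested. Capitals mark CG pairs in Dchs2, Cdh10 and Cdh12, and in Cdh6 and Cdh9 the longest run of bases common to their 2 windows.
Dchs2, chr3:83127277-83127526, plus strand: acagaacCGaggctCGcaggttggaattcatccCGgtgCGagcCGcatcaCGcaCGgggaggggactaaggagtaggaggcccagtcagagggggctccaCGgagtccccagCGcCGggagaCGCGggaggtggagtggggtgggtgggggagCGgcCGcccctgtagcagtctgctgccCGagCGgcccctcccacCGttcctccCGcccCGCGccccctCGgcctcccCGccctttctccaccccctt
Cdh6, chr15:13173676-13173925, minus strand: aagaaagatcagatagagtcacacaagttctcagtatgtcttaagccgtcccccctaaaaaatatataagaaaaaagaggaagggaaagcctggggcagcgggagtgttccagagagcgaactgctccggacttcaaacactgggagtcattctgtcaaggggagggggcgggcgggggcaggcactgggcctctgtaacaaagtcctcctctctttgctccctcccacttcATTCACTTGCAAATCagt
Cdh9, chr15:16728665-16728755, plus strand: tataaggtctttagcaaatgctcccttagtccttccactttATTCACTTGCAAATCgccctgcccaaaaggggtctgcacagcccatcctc
Cdh10, chr15:18820079-18820328, plus strand: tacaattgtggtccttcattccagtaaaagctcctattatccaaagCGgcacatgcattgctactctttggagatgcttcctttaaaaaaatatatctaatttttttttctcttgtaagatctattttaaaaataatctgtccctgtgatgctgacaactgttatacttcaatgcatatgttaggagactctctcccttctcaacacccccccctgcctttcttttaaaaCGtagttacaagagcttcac
Cdh12, chr15:21111202-21111333, plus strand: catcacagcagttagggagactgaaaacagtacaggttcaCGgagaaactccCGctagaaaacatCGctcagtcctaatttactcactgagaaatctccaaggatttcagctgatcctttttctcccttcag

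The Dchs2 stretch was 72% G and C with 22 CG pairs, and the Cdh10 stretch 36.8% with 2. The whole stretch of Dchs2 lies in an exon of the noncoding gene Gm10710 on the opposite strand. RefSeq windows, each 250 bases before to 50 after a start, were at hand for 26 of the 82 members (29 windows). The member windows held 2 to 40 CG pairs with a median of 18, beside a median of 7 over 32851 windows of all genes, of which 94.6% hold at least 1 CG. The 15-base run common to Cdh6 and Cdh9 was searched on both strands and was in 2 of the 32851 windows (0.00609%), those of these 2 genes. It was chosen after the sequences were seen, and these 2 genes differed between NAc and PFC in opposite directions, as given further on. The palindrome CACGTG, the E-box read by circadian clock factors, was in 7.15% of all windows and in 0 member windows, and TGACGTCA, the cAMP response element, in 1.79% and 0. The letters TATAAA, searched on both strands, were in 13.6% of all windows and in 2 of the members' windows. A match or its absence describes these letters in these windows alone.

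NAc against PFC was the comparison within 1 table. A gene was called when its adjusted p was under 0.05 over all 11569 rows (edgeR's quasi-likelihood test, Benjamini-Hochberg) and its fold change was at least 1.2. Of the 78 members tested, 56 were called (71.8%, beside a background of 45.4% of all rows), 37 of them higher in NAc (47.4%, background 23.7%) and 19 lower (24.4%, background 21.7%). The split followed the gene arrays. All 5 alpha protocadherins were lower in NAc, 12 of 18 beta and 17 of 21 gamma protocadherins were higher and none of these was called lower, and of 12 type II cadherins 8 were lower and 2 higher. The median log2 fold change was -0.47 for alpha, 0.48 for beta, 0.61 for gamma and -0.41 for type II cadherins, beside 0.02 for all rows. Of the 78 members, 77 exceeded 1 CPM in 50% or more of libraries from both regions. The remaining one, Pcdhb6, did so in NAc alone when CPM was taken over all rows of the table. Under the study's stated rule its place in the table would rest on the region where it was high, so it is described without a test. Without it 55 of 77 members were called, 36 higher and 19 lower. Of the 17 other beta genes 11 were higher, and their median log2 fold change was 0.455. The libraries of the 2 regions did not overlap at all for 9 members (11.5%, background 9.48%), or for 8 without Pcdhb6.

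**Figure D1:**
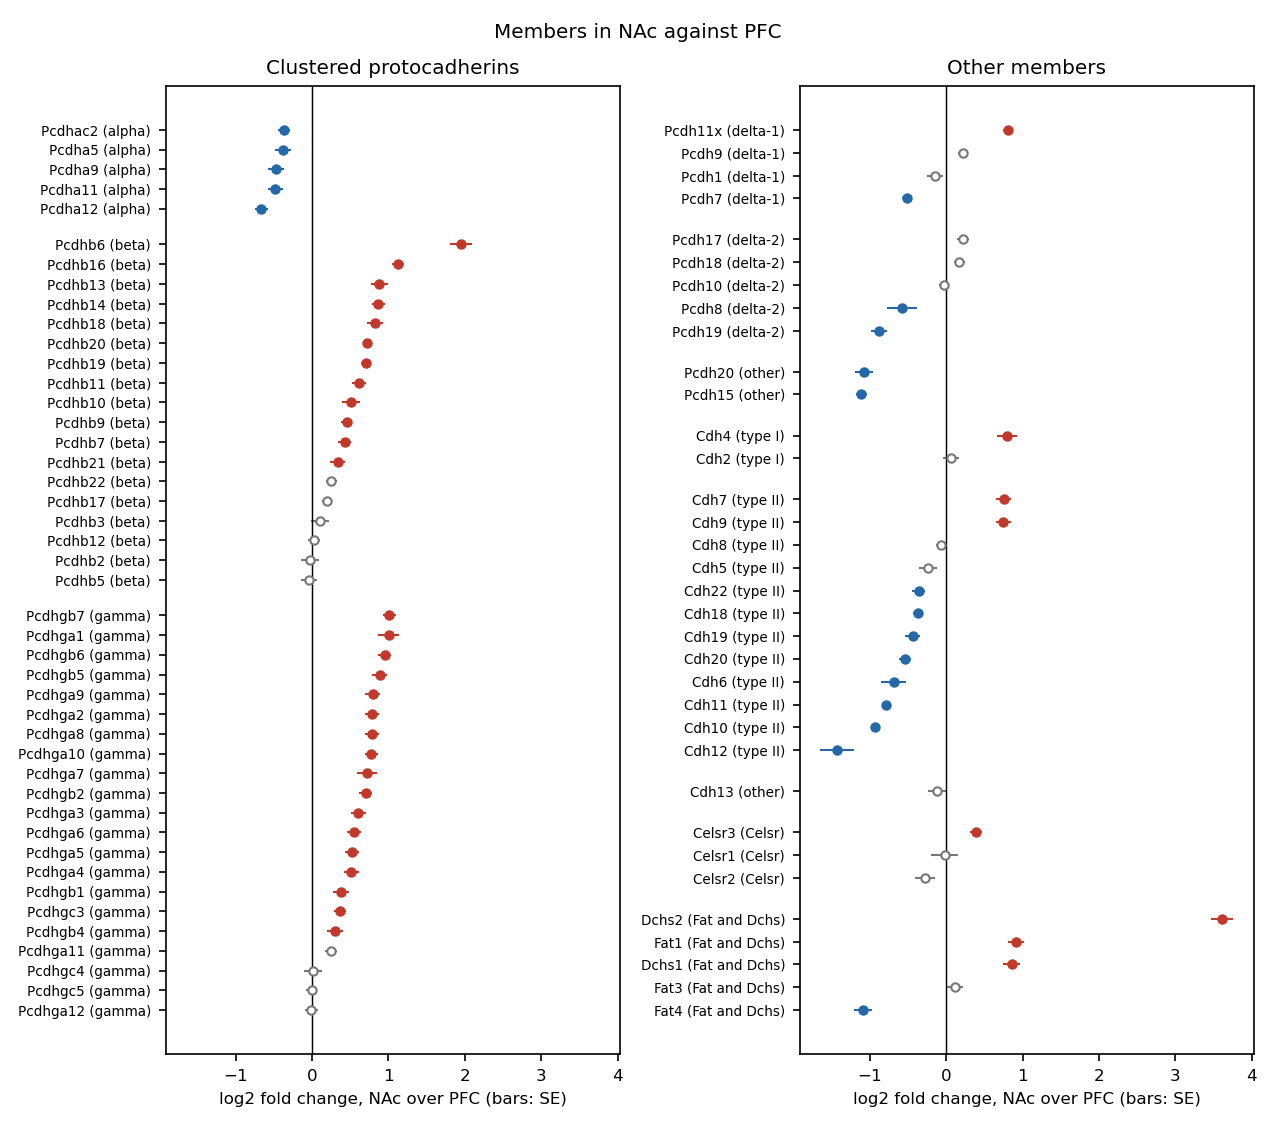
The log2 fold change of each of the 78 members in NAc over PFC is on the horizontal axis, with the standard error as a bar; filled red points were called higher in NAc, filled blue points lower, and open points were not called. All 5 alpha genes lie left of 0, all called beta and gamma genes lie right of it, and Dchs2 stands farthest out at 3.61.

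Every measured gene of the alpha array was lower in NAc. Pcdha12 had 1.82 to 5.02 CPM in NAc with a median of 3.21, and 3.32 to 7.02 CPM in PFC with a median of 4.89. The ranges overlapped, but within mice it was lower in NAc in 17 of 17, with a log2 fold change of -0.66 ± 0.0888 (SE; adjusted p = 9.8e-09). Pcdhac2, the C-type gene closest to the shared exons, had a median of 17.6 CPM in NAc and 22.7 CPM in PFC, and was lower in NAc in 16 of 17 mice (log2 fold change -0.37 ± 0.0768, adjusted p = 5.3e-05). Pcdha5, Pcdha9 and Pcdha11 had log2 fold changes of -0.38, -0.473 and -0.485. The constant exons are annotated to many alpha or gamma genes at once, and under union counting with default settings reads on them are ambiguous and count for none. Near-identical neighbouring genes can still share reads, so the value of any 1 clustered gene is less certain than the direction of its array.

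In the beta array, whose genes have a single coding exon each, the called genes were all higher in NAc. Pcdhb6 had 2.36, 3.94 and 6.7 CPM as the lowest, median and highest NAc library and 0.52, 1.06 and 1.67 CPM in PFC. The lowest NAc library was above the highest PFC library, and the log2 fold change was 1.96. Its PFC libraries held 23 to 80 reads each. Pcdhb16 had 7.44 to 12.96 CPM in NAc and 3.11 to 5.54 CPM in PFC, again without overlap (log2 fold change 1.13 ± 0.0778, adjusted p = 2.6e-17). Pcdhb20, at 9.39 to 14.4 CPM against 5.98 to 8.58 CPM, had no overlap either. Pcdhb13 and Pcdhb14 were higher in NAc in 17 of 17 mice, by 0.88 ± 0.11 and 0.86 ± 0.0838 on the log2 scale (adjusted p = 1.8e-09 and 1.7e-12). The 6 beta genes that were not called lay between -0.04 and 0.25, among them Pcdhb2, Pcdhb3 and Pcdhb5 at 1 end of the array.

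In the gamma array 17 genes were higher in NAc, and Pcdhga11, Pcdhga12, Pcdhgc4 and Pcdhgc5, all near its end, were not called. Pcdhgb7 had a median of 9.89 CPM in NAc (6.34 to 14.1) and 4.96 CPM in PFC (3.35 to 7.02), and its log2 fold change was 1.01 ± 0.0817 (adjusted p = 5.1e-15). Pcdhga1 differed by 1 on the log2 scale (SE 0.139, adjusted p = 2.2e-08), Pcdhgb6 by 0.95 ± 0.0911 (adjusted p = 1.3e-12) and Pcdhgb5 by 0.88 ± 0.0996 (adjusted p = 1.3e-10). The ranges overlapped in all 21 gamma genes, and Pcdhgb6, Pcdhgb7 and Pcdhga10 were higher in NAc in 17 of 17 mice. Among the C-type genes, Pcdhgc3 was higher in NAc (log2 fold change 0.37 ± 0.0752, adjusted p = 4.1e-05), although not in the lower range of mouse numbers (0.26, adjusted p = 0.11). Pcdhgc4, the gamma isoform known to be needed for the survival of interneurons, had medians of 4.08 CPM in NAc and 4.07 CPM in PFC (adjusted p = 0.93). Pcdhgc5 had 51.8 and 52.6 CPM (adjusted p = 0.95). The exons of Pcdhga10 are all covered by other annotated genes when strand is not counted, and its NAc and PFC medians of 8.65 and 5.15 CPM therefore rest on how strand was treated, which is not given in the sources used here.

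**Figure D2:**
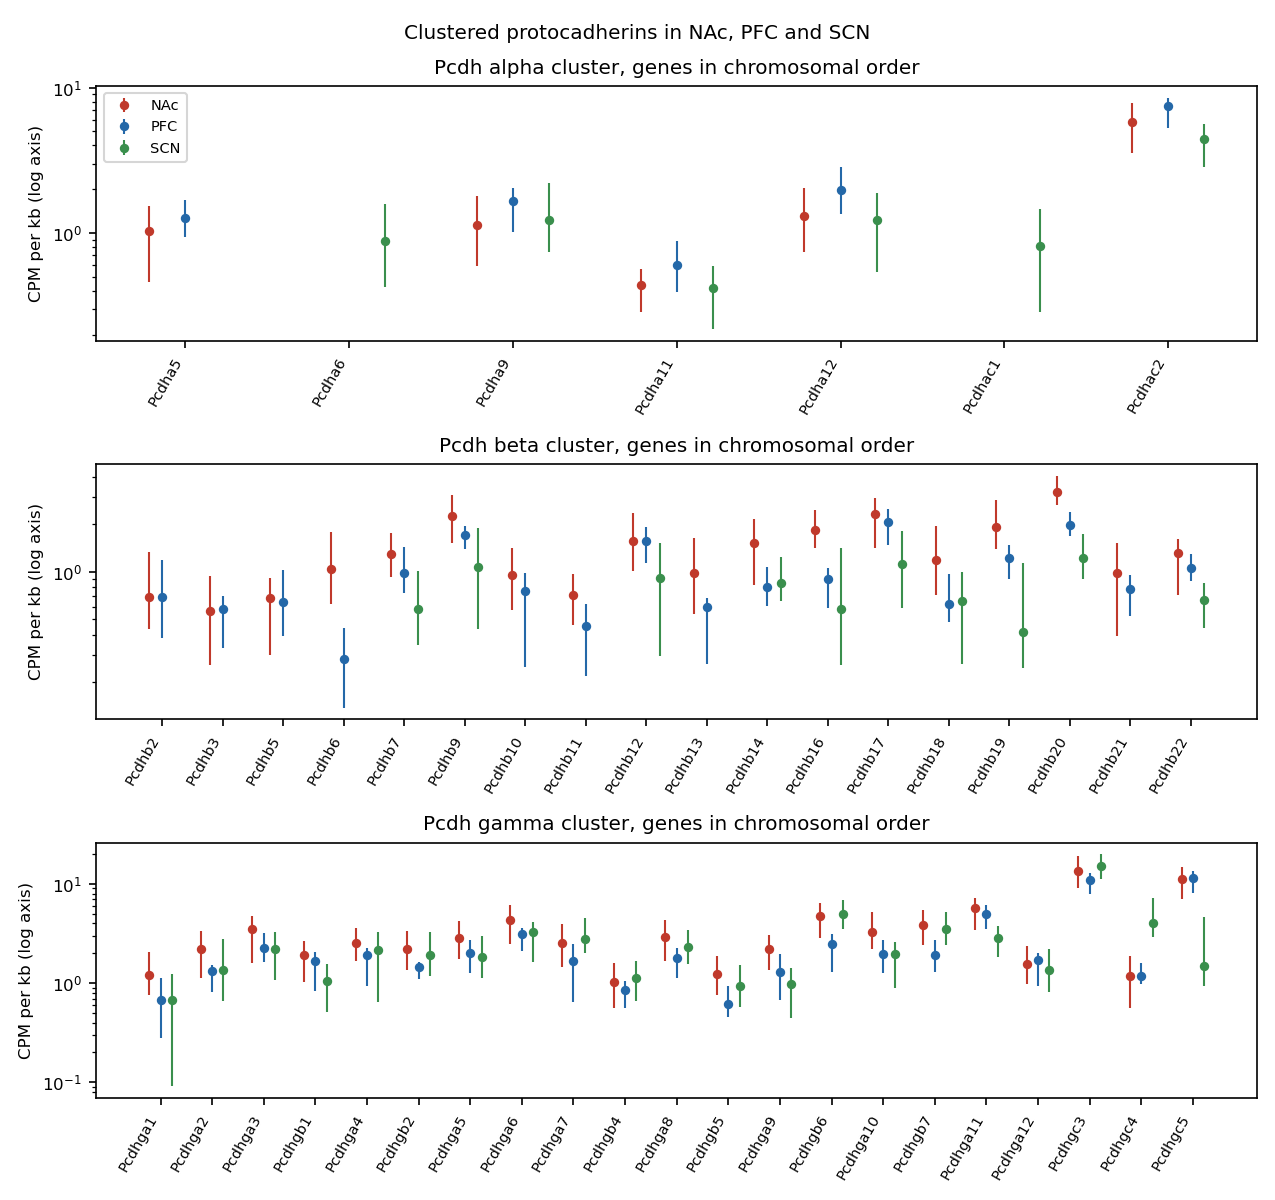
Median CPM per kb, on a log axis, of every clustered protocadherin with a row, in chromosomal order within each array, for NAc (red), PFC (blue) and SCN (green); bars run from the lowest to the highest library. The last pair of gamma genes separates the SCN, with Pcdhgc4 above and Pcdhgc5 below the other regions. The medians of the 10 beta genes with an SCN value order as NAc, PFC and SCN, except at Pcdhb14 and Pcdhb18.

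Summed over the genes with a row in both tables, the 3 arrays did not order the regions alike. The 4 alpha genes summed to a median of 24.6 CPM in NAc (17.1 to 32.8), 34.6 CPM in PFC (24 to 40.4) and 20.5 CPM in SCN (16.4 to 27.9). The 10 beta genes summed to 89.4 CPM in NAc (73 to 117), 60.2 CPM in PFC (51.9 to 64) and 38.9 CPM in SCN (30.7 to 58.4). Every NAc library was above every PFC and SCN library in this sum, and the 1 SCN library within the PFC range was J1199. The 21 gamma genes summed to 242 CPM in NAc (157 to 295), 190 CPM in PFC (139 to 209) and 175 CPM in SCN (142 to 245), and all 3 ranges overlapped. The 11 non-clustered protocadherins summed to 802 CPM in NAc, 851 CPM in PFC and 637 CPM in SCN.

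**Figure D3:**
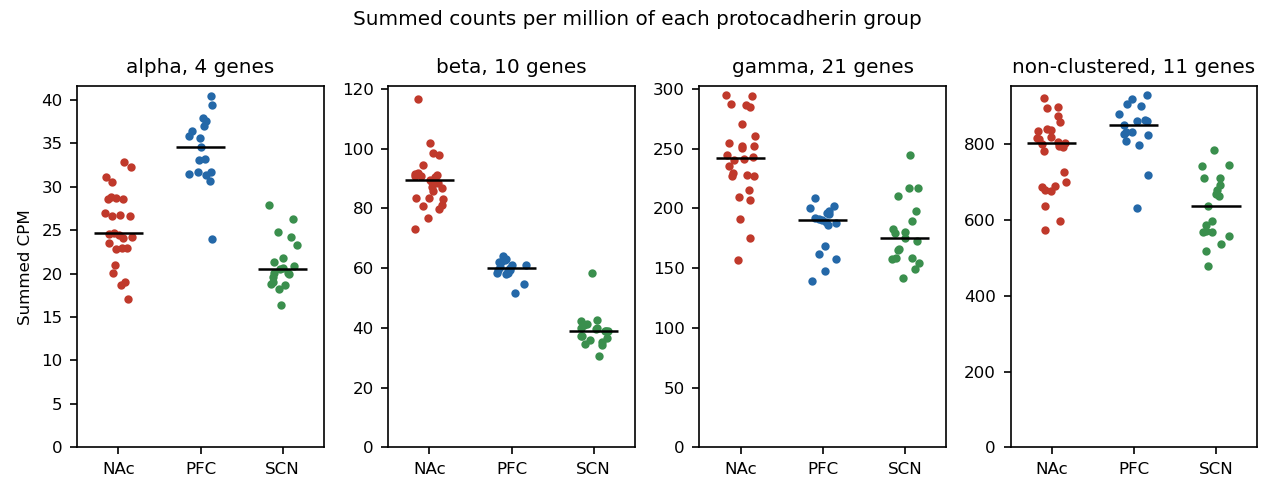
Summed CPM of the alpha, beta and gamma genes with a row in both tables and of the non-clustered protocadherins; each point is 1 library and the bar is the median of its region. The beta sums of NAc lie above all others, while the median alpha sum is highest in PFC.

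The non-clustered protocadherins did not follow the clustered ones. Of 11 tested, 6 were called, 1 higher and 5 lower in NAc, with a median log2 fold change of -0.15. Without Pcdhb6, 28 of 43 clustered genes were higher and 5 lower, with a median of 0.51. Among the delta-1 genes, Pcdh11x had 40.4 to 69 CPM in NAc and 21.3 to 34.8 CPM in PFC, with no overlap (log2 fold change 0.80 ± 0.0608, adjusted p = 5.7e-16). Pcdh7 had medians of 89 CPM in NAc and 127 CPM in PFC (-0.51 ± 0.0684, adjusted p = 1.1e-08), and it was lower in NAc in 16 of 17 mice. Pcdh9, at 85.5 and 75.9 CPM, passed the p but not the fold (0.22 ± 0.063, adjusted p = 0.0027), and passed both without the NAc libraries high in Slc17a7 (0.276, adjusted p = 0.0038). Pcdh1 was at 78.8 and 85.1 CPM (-0.147, adjusted p = 0.21). In the 17 mice with both regions it was called lower in NAc both without a block (-0.308, adjusted p = 0.01) and with mouse as a paired block (-0.327, adjusted p = 0.023).

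Among the delta-2 genes, Pcdh19, whose loss in people causes an epilepsy, had 14.7, 30.4 and 50.5 CPM as the lowest, median and highest NAc library and 41.1, 59.1 and 64.6 CPM in PFC. The ranges overlapped at their edges, it was lower in NAc in 17 of 17 mice, and the log2 fold change was -0.88 ± 0.11 (adjusted p = 1.8e-09). Pcdh8, a synaptic protocadherin induced by neuronal activity, ranged 7.78-fold within the NAc, from 3.98 to 31 CPM, against 15.6 to 26.9 CPM in PFC. It was lower in NAc (-0.58 ± 0.199, adjusted p = 0.0096). The difference was -0.727 among the lower mouse numbers (adjusted p = 0.054) and -0.479 in the higher range (adjusted p = 0.1). In the 17 mice with both regions it was -0.894 without and -1.09 with mouse as a paired block. Pcdh10, at 290 and 303 CPM, Pcdh17, at 113 and 95.3 CPM, and Pcdh18, at 6.39 and 5.96 CPM, were not called (adjusted p = 0.63, 0.017 and 0.038). Pcdh20 and Pcdh15 were lower in NAc in 17 of 17 mice, with no library of one region inside the range of the other. Pcdh20 had 7.78 to 22.8 CPM in NAc and 23.7 to 38.5 CPM in PFC (-1.08 ± 0.119, adjusted p = 6.9e-11). Of its 5 highest NAc libraries 3 were among the 5 highest in Slc17a7, and of its 5 lowest 0 were. The part of cortical RNA was not tested. Pcdh15, the partner of Cdh23 in the tip link, had 5.47 to 11.2 CPM and 13.6 to 23.96 CPM (-1.11 ± 0.0747, adjusted p = 9.2e-18). All 5 mature oligodendrocyte markers were higher in NAc, their sums being 494 to 1335 CPM in NAc and 112 to 367 CPM in PFC. Of 3 oligodendrocyte precursor markers 1 was higher, of 4 astrocyte markers 1 (Gfap) was lower, and of 4 microglial markers 0 were called. The part of these cells in the members' differences was not tested.

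Of the classical cadherins, the type I gene Cdh2, the N-cadherin of neurons, had medians of 65.4 CPM in NAc and 65.1 CPM in PFC (adjusted p = 0.6). Cdh4, or R-cadherin, had medians of 14.2 and 8.17 CPM and was higher in NAc in 15 of 17 mice (0.80 ± 0.132, adjusted p = 1e-06). It was not called among mice numbered in the lower range, at a log2 fold change of 0.39 (adjusted p = 0.1). Among the type II cadherins, which sort neurons into nuclei and layers, 2 were higher in NAc. Cdh9 had 12.2 to 33 CPM in NAc and 8.88 to 20.3 CPM in PFC (0.75 ± 0.0976, adjusted p = 5.8e-09) and was higher in NAc in 17 of 17 mice. Cdh7 was alike, at medians of 37.8 and 23.6 CPM (0.75 ± 0.0984, adjusted p = 5.6e-09).

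The neighbours of Cdh9 on chromosome 15 differed the other way. Cdh10 lies at 18818947 to 19014236, some way beyond Cdh9 at 16728756 to 16857094, and had 17.8 to 28.3 CPM in NAc and 35.2 to 55.3 CPM in PFC without overlap (-0.94 ± 0.0548, adjusted p = 7.4e-20). Cdh12, the next gene along, had a median of 10.2 CPM in NAc but ranged 9.16-fold, from 4.09 to 37.5 CPM, while the PFC held to between 28.2 and 46.7 CPM. It was lower in NAc in 17 of 17 mice (-1.43 ± 0.22, adjusted p = 2.3e-07). Of the 5 NAc libraries highest in Cdh12, 4 were among the 5 highest in Slc17a7, and without the 13 NAc libraries above 10% of the PFC median of Slc17a7 the log2 fold change was -2.52, and in the 17 mice with both regions it was -1.74 without and -2.07 with mouse as a paired block. Cdh6, whose window shares the 15-base run with that of Cdh9, had medians of 4.12 and 7.34 CPM (-0.69 ± 0.161, adjusted p = 0.00025), and again 4 of its 5 highest NAc libraries were among the 5 highest in Slc17a7, with a log2 fold change of -1.2 without the 13, and of -1.03 without and -1.08 with the paired block in those 17 mice. Cdh18, the last of the row, was lower in NAc with a log2 fold change of -0.37 (adjusted p = 1.1e-05). The part of cortical RNA in these 2 spreads was not tested.

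**Figure D4:**
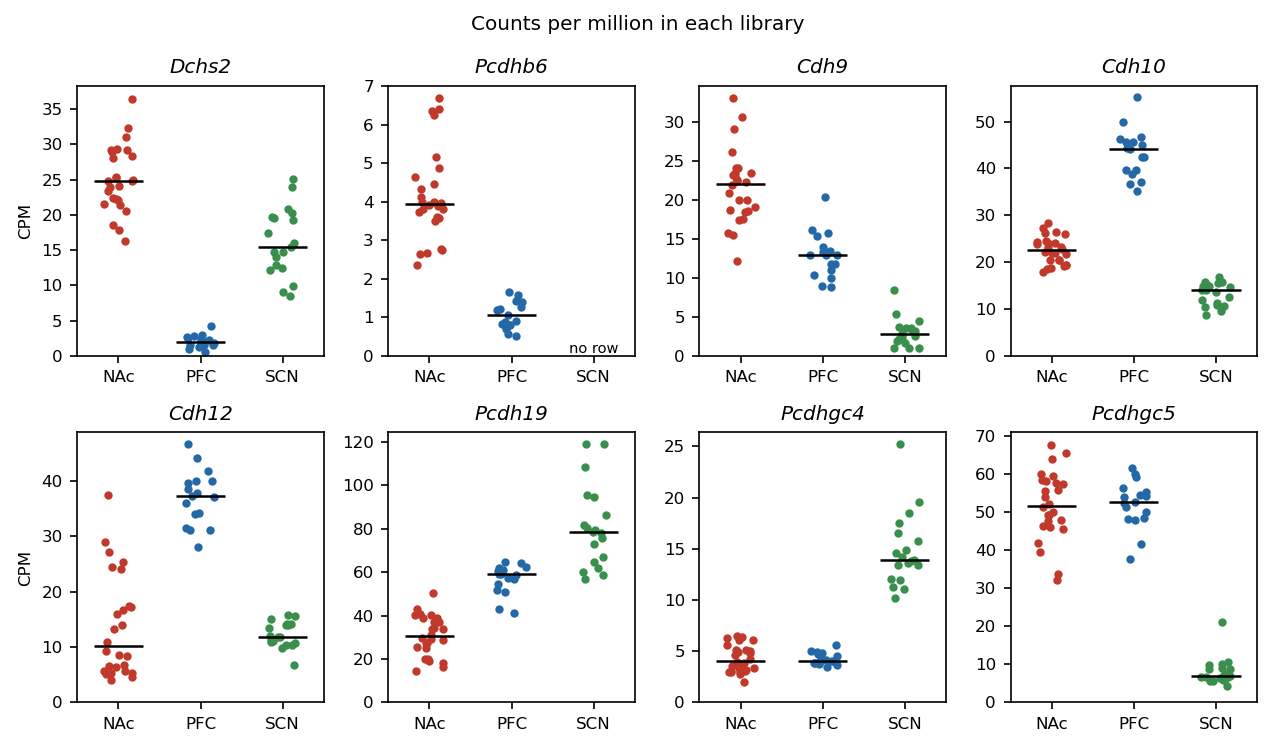
CPM of 8 members in every library of NAc (red), PFC (blue) and SCN (green), with the median as a bar; Pcdhb6 has no row in the SCN table. Dchs2 is near 0 in PFC and between 8.46 and 36.5 CPM elsewhere, Cdh12 spreads in NAc down from the PFC levels, and Pcdhgc5 falls to a median of 6.89 CPM in SCN, where J1199 is the single high library.

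Of the other type II genes, Cdh11, expressed in many neurons and in mesenchyme, had 36.7 to 59.2 CPM in NAc and 79.1 to 92.6 CPM in PFC without overlap (-0.79 ± 0.0421, adjusted p = 2.1e-21). All 3 tested meningeal and fibroblast genes were lower in NAc too (Col1a1 -0.909, Col1a2 -1.563 and Dcn -1.065). The part of such cells in the Cdh11 difference was not tested. Cdh22 was lower in NAc (-0.36 ± 0.0883, adjusted p = 0.00042), although in the higher range of mouse numbers it was not (-0.15, adjusted p = 0.18). Cdh19 and Cdh20 were lower with log2 fold changes of -0.44 and -0.54. Cdh8 was at 42.1 and 45.2 CPM (adjusted p = 0.33). Cdh5, the cadherin of endothelial junctions, was at 6.94 and 7.84 CPM (-0.24 ± 0.115, adjusted p = 0.07). In the 17 mice with both regions Cdh5 was called lower in NAc without a block (-0.299, adjusted p = 0.044), but not with mouse as a paired block. Among the lower mouse numbers it was called lower too (-0.588, adjusted p = 0.0067). Of 5 other endothelial genes 1 was called, Cldn5, which was lower in NAc with a log2 fold change of -0.30. Cdh13, the cadherin without a cytoplasmic domain, was at 32.2 and 32.9 CPM (-0.123, adjusted p = 0.36), and was called lower in NAc among the lower mouse numbers (-0.414, adjusted p = 0.021) with the sign turned in the higher range (0.0976).

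Dchs2 differed most of all members. It had 16.3, 24.8 and 36.5 CPM as the lowest, median and highest NAc library, and 0.53, 2 and 4.18 CPM in PFC. Of its 5 lowest NAc libraries 3 were among the 5 highest in Slc17a7, and of its 5 highest 0 were. The part of cortical RNA in this spread was not tested. The lowest NAc library was above the highest PFC library, and the log2 fold change was 3.61 ± 0.145 (12.2-fold; adjusted p = 4.5e-26), with a difference of 3.55 to 3.78 when the mice were taken by number range, paired, or without the libraries that stood apart. An exon of Gm10710 covers the printed Dchs2 stretch on the opposite strand, and whether reads of the 2 genes were told apart is not given. Dchs1, its paralog, was higher in NAc by 0.86 ± 0.112 (medians 12.1 and 6.45 CPM, adjusted p = 5e-09). Fat4, the receptor that Dchs1 binds, went the other way, with medians of 8.87 and 17.9 CPM (-1.09 ± 0.117, adjusted p = 3.4e-11) and a lower value in NAc in 17 of 17 mice. Fat1 was higher in NAc (67.1 and 38.3 CPM, 0.92 ± 0.109, adjusted p = 6.2e-10), and Fat3 did not pass (405 and 410 CPM, adjusted p = 0.33), though without the 13 NAc libraries high in Slc17a7 it was called higher in NAc (0.282, adjusted p = 0.026). Of the Celsr genes, Celsr3 was higher in NAc (0.39 ± 0.083, adjusted p = 7.1e-05; in the lower range of mouse numbers 0.266, adjusted p = 0.077). Celsr1 was at 2.86 and 3.94 CPM (adjusted p = 0.92). Celsr2 was at 94.8 and 120 CPM (-0.28 ± 0.136, adjusted p = 0.07), and in the 17 mice with both regions was called lower in NAc both without a block (-0.512, adjusted p = 0.0018) and with mouse as a paired block (-0.53, adjusted p = 0.01). It was also called without NAc J1019 and PFC J1160 (-0.3, adjusted p = 0.03) and without the NAc libraries high in Slc17a7 (-0.482, adjusted p = 0.012).

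Catenins tie cadherins to the cytoskeleton, and other partners act in planar polarity or at the clustered arrays. Of 7 tested catenins and armadillo proteins, 2 were higher in NAc (Jup, or plakoglobin, by 0.70 and Ctnna1 by 0.27) and 2 lower (Ctnnd1 with a log2 fold change of -0.55 and Ctnnd2 with a log2 fold change of -0.46). Of 8 planar polarity and Fat-Dchs partners, Fzd3 was higher, by 0.32, and Prickle1 and Dvl1 were lower, with log2 fold changes of -0.87 and -0.48. Of 11 genes known to shape chromatin loops or silencing at the clustered arrays, 4 were higher in NAc (Stag1 by 0.85, Nipbl by 0.46, Stag2 by 0.40 and Smc3 by 0.27) and 0 lower, while Ctcf was not called. Over all rows 23.7% were higher and 21.7% lower, and the median log2 fold change of the 11 was 0.19, beside 0.02 for all rows.

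The SCN was compared with each other region over the 11133 rows in both tables, in 1 fit of all 62 libraries. The SCN libraries are the only ones in their table, so the region and whatever set that table apart cannot be told apart, and both contrasts use the same SCN libraries. Against NAc, 51 of 69 members were called (73.9%, background 64.1%), 12 higher in SCN (17.4%, background 33.1%) and 39 lower (56.5%, background 31%). Against PFC, 52 were called (75.4%, background 64.7%), 20 higher (29%, background 33.7%) and 32 lower (46.4%, background 31%). The ranges of SCN and NAc did not overlap in 12 members (17.4%, background 13.2%), and those of SCN and PFC in 14 (20.3%, background 20.7%). With so many of all rows called, the directions tell more than the totals. All 10 beta genes with a row in both tables were lower in SCN than NAc and 8 of 10 lower than PFC, while of 21 gamma genes 1 was higher and 13 lower than NAc, and 9 higher and 5 lower than PFC.

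Among the gamma genes, Pcdhgc4 and Pcdhgc5 differed most. Pcdhgc4 had 10.2, 13.9 and 25.2 CPM as the lowest, median and highest SCN library, against at most 6.48 CPM in NAc and 5.6 CPM in PFC. Every SCN library was above every other, with log2 fold changes of 1.79 ± 0.105 over NAc and 1.80 ± 0.121 over PFC (adjusted p = 4.7e-24 and 3.1e-21). Pcdhgc5, the next gene, went the other way: 4.36, 6.89 and 21.2 CPM in SCN against at least 32.3 CPM in NAc and 37.7 CPM in PFC (-2.67 ± 0.112 and -2.68 ± 0.117, adjusted p = 1.4e-31 and 1.1e-30). The highest SCN library was J1199 and the second J1140 at 10.7 CPM, those high in Ppp1r1b, and without them both differences were -2.85. Per kb, Pcdhgc4 was 0.113 of Pcdhgc5 in the median NAc library, 0.106 in PFC and 2.73 in SCN, where the ratio was 0.837 in J1199 and 4.19 at most. Pcdhgc3 was higher in SCN than PFC (0.59 ± 0.0776, adjusted p = 5.1e-10) and against NAc passed the p but not the fold (0.23 ± 0.0694, adjusted p = 0.0025). As shares of all gamma counts, Pcdhgc4 took a median of 8.23% in SCN, 1.73% in NAc and 2.28% in PFC, and Pcdhgc5 took 4.03%, 21.3% and 28.4%.

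Elsewhere in the arrays, Pcdhb19 was the beta gene farthest from NAc, at 1.75 to 8.09 CPM in SCN and 10 to 20.3 CPM in NAc (-2.03 ± 0.0988, adjusted p = 3.2e-28), and against PFC it was lower with a log2 fold change of -1.33. Its highest SCN library was again J1199. Pcdhgb6 was higher in SCN than PFC without overlap (1.02 ± 0.0971, adjusted p = 7.2e-15), while against NAc it was not called (adjusted p = 0.4). Pcdhac2 was lower in SCN than in NAc and PFC, with log2 fold changes of -0.39 and -0.75. Library J1199 was the highest SCN library for 18 of the 73 members (24.7%, beside 7.52% of all rows), Pcdhb7, Pcdhb9, Pcdhb16, Pcdhb20 and Pcdhb22 among them.

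**Figure D5:**
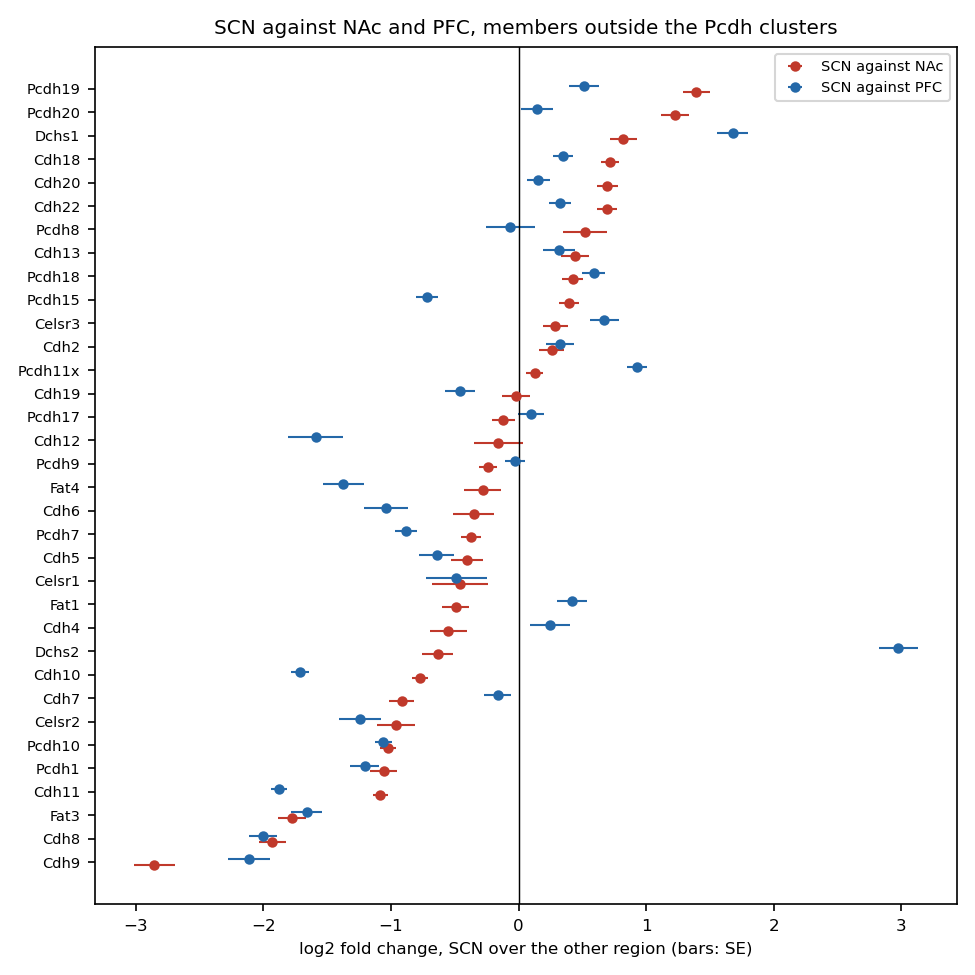
Log2 fold change of the 34 members outside the clustered arrays in SCN over NAc (red) and SCN over PFC (blue), with standard errors as bars, ordered by the SCN over NAc value. Cdh9, Cdh8, Fat3 and Cdh11 lie at the left in both contrasts, and Dchs2 lies at -0.64 against NAc but 2.98 against PFC.

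Among the type II cadherins, Cdh9 differed most, with 1, 2.76 and 8.47 CPM as the lowest, median and highest library (-2.85 ± 0.159 against NAc, -2.11 ± 0.165 against PFC, adjusted p = 3.1e-25 and 2.3e-18). Its highest SCN library was below the lowest of both other regions. Cdh8 had 6.04 to 19.9 CPM in SCN, under every NAc and PFC library (-1.93 ± 0.106 and -2.004 ± 0.112, adjusted p = 1.2e-25 and 3.7e-25). Cdh11, at 17.1 to 32.6 CPM, was lower than both (-1.08 and -1.88, adjusted p = 4.2e-27 and 1.7e-37), and Cdh10, at 8.8 to 16.8 CPM, was as well (-0.77 and -1.71, adjusted p = 4.1e-17 and 6.4e-32). Cdh12 had a median of 11.9 CPM and was lower than PFC (-1.59 ± 0.213, adjusted p = 9.2e-10) and not called against NAc. Against these, Cdh18 (0.72 and 0.35) and Cdh22 (0.69 and 0.33) were higher in SCN than in either region, the latter not in the lower range of mouse numbers against PFC (0.12, adjusted p = 0.49). Cdh5 was lower in SCN with log2 fold changes of -0.40 and -0.64, the first not called in the lower range of mouse numbers (-0.335, adjusted p = 0.12), and 3 and 4 of the 5 other endothelial genes were lower too, with sums of 33.9 to 68.6 CPM in SCN, 40.3 to 83.8 CPM in NAc and 47 to 96.9 CPM in PFC. The part of vessel content was not tested. All 5 oligodendrocyte markers were higher in SCN than PFC (median log2 fold change 2.25) and 1 of 5 than NAc, all 4 astrocyte markers were higher than in NAc and PFC (0.763 and 0.741), 3 of 4 microglial markers were lower than in each (-0.556 and -0.575), and of 3 meningeal genes 3 were higher than in NAc (1.756) and 1 than in PFC. Their part in the members' differences was not tested either. Cdh13 was higher in SCN than NAc (0.44 ± 0.112, adjusted p = 0.00036) and PFC (0.32 ± 0.125, adjusted p = 0.02; in the lower range of mouse numbers 0.0351, adjusted p = 0.86, and without J1157, J1159 and J1177 0.211, adjusted p = 0.11). Cdh2 was higher than in PFC (0.33 ± 0.11, adjusted p = 0.0067), with mouse as a paired block at 0.274 (adjusted p = 0.051), and among the lower mouse numbers at 0.157 (adjusted p = 0.48). Without SCN J1157, J1159 and J1177 it was under the fold threshold (0.236, adjusted p = 0.042). Against NAc, Cdh2 passed the p but not the fold (0.261, adjusted p = 0.014), and was just above the fold without SCN J1199 and J1140 (0.266, adjusted p = 0.018). Cdh4 was lower than in NAc with a log2 fold change of -0.55.

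Of the non-clustered protocadherins, Pcdh19 had 57.1, 78.5 and 119 CPM as the lowest, median and highest SCN library. All were above the highest NAc library, and the log2 fold change was 1.39 ± 0.105 over NAc (adjusted p = 5.3e-19) and 0.51 ± 0.118 over PFC (adjusted p = 9.8e-05). Pcdh20 was higher than in NAc in 19 of 19 mice (1.23 ± 0.112, adjusted p = 1.4e-15), with medians of 32.8 CPM in SCN and 29.9 CPM in PFC. Pcdh11x was higher than in PFC without overlap (0.93 ± 0.0762, adjusted p = 2.2e-17) and not called against NAc. Pcdh18 was higher than in both (0.42 and 0.59), and Pcdh15 was higher than in NAc (0.40) and lower than in PFC (-0.72). Pcdh10, at 100 to 189 CPM, was lower than in both without overlap (-1.02 ± 0.0636 and -1.06 ± 0.0687, adjusted p = 6e-23 and 5.1e-22). Pcdh1 was lower with log2 fold changes of -1.06 and -1.21, and Pcdh7 with log2 fold changes of -0.37 and -0.89. Pcdh8 was higher than in NAc (0.52 ± 0.173, adjusted p = 0.0054; in the lower range of mouse numbers 0.441, adjusted p = 0.16), and Pcdh9 and Pcdh17 were called in neither contrast, though Pcdh9 was lower than in NAc without J1157, J1159 and J1177 (-0.269, adjusted p = 0.00067).

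Among the large cadherins, Dchs2 had a median of 15.5 CPM in SCN, higher than PFC in 12 of 12 mice (2.98 ± 0.153, adjusted p = 4.5e-27) and lower than NAc in 17 of 19 (-0.64 ± 0.124, adjusted p = 5.8e-06). Dchs1 was higher than in both regions, by 0.82 ± 0.103 and 1.68 ± 0.12 (adjusted p = 1.2e-10 and 4.4e-20), and its SCN libraries, at 14.8 to 30.1 CPM, were all above those of the PFC. Fat3 was lower in SCN without overlap (-1.78 ± 0.112 and -1.66 ± 0.119, adjusted p = 1.4e-22 and 5.2e-20). Fat4 was lower than in PFC (-1.37 ± 0.159) and not called against NAc (-0.282, adjusted p = 0.071), but was called lower there without SCN J1199 and J1140 (-0.397, adjusted p = 0.011) and without J1157, J1159 and J1177 (-0.386, adjusted p = 0.014), and Fat1 was lower than in NAc with a log2 fold change of -0.49 and higher than in PFC by 0.42, the latter not in the lower range of mouse numbers (0.202, adjusted p = 0.31). Celsr2 was lower than in both (-0.96 and -1.24), and Celsr3 was higher than in both (0.29 and 0.67, the former not among the lower mouse numbers, 0.189 and adjusted p = 0.21, nor without J1157, J1159 and J1177, 0.199 and adjusted p = 0.033). Celsr1 had the widest spread of any member in SCN, 21-fold from 0.53 to 11.1 CPM, and was not called in either contrast (adjusted p = 0.053 and 0.062), though with mouse as a paired block it was lower in SCN in both (-0.64 and -0.72, adjusted p = 0.012 for each), and in the same mice without the block it was not called (-0.469 and -0.487). Its highest SCN library was J1157, and without J1157, J1159 and J1177 it was lower in SCN than NAc and PFC (-0.939 and -0.984, adjusted p = 3.6e-05 and 5.2e-05). Of its 5 highest SCN libraries, 4 were among the 5 highest in the summed ependymal markers. Their part in the spread was not tested. After Celsr1, the widest SCN spreads were those of Pcdhga1 (13.6-fold, with 9 reads in the lowest library), Cdh9 (8.46-fold), Pcdhb16 (5.49-fold) and Pcdhb12 (5.18-fold).

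Of the partners, 1 of 7 catenins and armadillo proteins was higher in SCN and 3 lower in each contrast, and Ctnna1 was the one higher (0.48 over NAc and 0.74 over PFC). Vangl2, a core planar polarity gene, was higher in SCN by 2.275 over NAc and 2.443 over PFC, while Fjx1, the vertebrate kinase that acts on Fat and Dchs cadherins, was lower, with log2 fold changes of -0.848 and -0.825. Over the 8 genes of that list, 3 were higher and 4 lower than in NAc, and 2 higher and 3 lower than in PFC. Of the 11 regulators of the clustered arrays, 5 were lower in SCN than NAc and 0 higher, and against PFC 0 were called by edgeR's test. Over all rows 33.1% were higher and 31% lower than in NAc, and 33.7% and 31% than in PFC.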

How the data were processed

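The deposited files are 2 tables of unnormalized read counts per gene, 1 for NAc and PFC and 1 for SCN. The authors aligned paired reads to GRCm38 with HISAT2 after FastQC (0.11.7), counted genes with HTSeq in union mode, kept genes above 1 CPM in 50% or more of the animals within each group, filtering regions separately, and removed Y-linked genes. The annotation release and strand setting are not given in the sources used here. Gene symbols came from GENCODE annotation of GRCm38. The NAc and PFC counts, and separately the joined counts of all 62 libraries, were fitted with edgeR 4.0.16 (TMM, glmQLFit, glmQLFTest) in R 4.3.3, with DESeq2 1.42.0 as an alternative. CPM is per 1000000 counts on rows of both tables, scaled by TMM. On simulated counts, 199 of 200 genes changed 2-fold were recovered in NAc against PFC, with 9 others called. Only those 200 of 11569 genes were changed, and the lowest genes were left out of them. Smaller changes, lower levels and changes in as many genes as were called here were not simulated. A chi-square comparison of counts found no pair of libraries as close as sampling noise. Members and gene lists were chosen with earlier results of these data known. Named members were the 10 largest called differences in each direction in NAc against PFC, 5 against SCN, a set list of known genes, those in 1 table alone and the 5 widest SCN spreads. Mouse numbers pair samples of 1 animal: over 17 mice the correlation of NAc and PFC deviations was -0.449 to 0.272, with a median of 0.00606. Counts at these depths limit the low clustered genes, whose libraries held as few as 9 reads. The main fits had no term for mouse. Their p-values measure the spread between libraries of mixed groups, treated as independent although many mice gave more than 1 region. The alternatives changed the tool, scaling, filter, block, mouse range or libraries.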

Additional observations from a re-analysis of the deposited data

How the results depend on the processing

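The number of members called kept to 52 to 59 for NAc against PFC (56), to 30 to 34 for its clustered genes (34), to 6 to 7 for its non-clustered genes (6), to 47 to 54 for SCN against NAc (51) and to 44 to 53 for SCN against PFC (52), over 11 alternatives for NAc against PFC and 13 for each SCN comparison, and no member called in both settings changed direction. The counts for NAc against PFC include Pcdhb6. Neither filter on low counts removed a row, so they repeat the main values. With the replicate block (mouse number) the counts were 58, 54 and 52, and apart from the genes named with a block in the report, Fat4 (-0.35, adjusted p = 0.019) and Cdh2 (0.32, adjusted p = 0.0093, and 0.293 in the same mice unblocked) gained a call against NAc in the SCN. Leaving out NAc J1019 and PFC J1160, chosen after seeing the data, gave 57, 53 and 52. Celsr1 then gained a call in SCN against NAc (-0.476, adjusted p = 0.048). Leaving out SCN J1157, J1159 and J1177, and using the mice with more than 1 region without the block, both also chosen after seeing the data, gave 54 and 51 against NAc and 51 and 52 against PFC. Other calls gained were Pcdh9 (0.269, adjusted p = 0.0055) and Pcdh17 (0.303, adjusted p = 0.012) in NAc against PFC and Cdh4 (0.582, adjusted p = 0.0091) in SCN against PFC, all for the higher mouse numbers, and Celsr1 with DESeq2 in SCN against NAc (-0.491, adjusted p = 0.03) and PFC (-0.517, adjusted p = 0.039). For the lower mouse numbers, Pcdh1 (-0.462, adjusted p = 0.015) and Celsr2 (-0.567, adjusted p = 0.022) were called in NAc against PFC. Celsr1 was called there in SCN against PFC (-0.833, adjusted p = 0.031). In SCN against NAc, Cdh2 was called for the higher mouse numbers (0.34, adjusted p = 0.0094) and with 2 regions alone in the fit (0.282, adjusted p = 0.016). It was also called without mitochondrial and ribosomal RNA genes (0.266, adjusted p = 0.013). The sign turned for members that were not called in the main comparison, and the cause was not tested. In NAc against PFC these were Cdh2 (-0.123 with the replicate block, -0.0928 in the same 17 mice unblocked, -0.0056 among lower mouse numbers and -0.118 without NAc libraries high in Slc17a7), Pcdhgc4 (-0.222, -0.176, -0.159 and -0.243 in the same order), Cdh8 (0.0107 lower range), Pcdhgc5 (0.0068 without mitochondrial and ribosomal RNA genes), Celsr1 (0.0888 without NAc libraries high in Slc17a7), and in the higher range of mouse numbers Cdh5 (0.0287), Cdh13 (0.0976), Pcdh1 (0.0899), Pcdhgc5 (0.108), Celsr1 (0.264) and Fat3 (-0.0679). In SCN against PFC they were Cdh4 (-0.236 lower range), Pcdh8 (0.0859 higher range), Pcdh9 (0.0162 with the replicate block, 0.0435 higher range) and Pcdh17 (-0.0155 with the replicate block). Low counts limit the clustered genes most.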
